A study of Mus musculus with 3 samples.

Results

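Smooth muscle genes were read in whole mouse embryos that differed in the small Maf protein MafG and in age. The set holds 8 genes, chosen by name: the smooth muscle actins Actg2 and Acta2, the actin-binding genes Tagln and Cnn1, the coactivator gene Myocd, the myosin light chain kinase gene Mylk, the filament gene Des and the LIM protein gene Csrp1. Through the RefSeq accession of each array feature they matched 13 probes on 31 spots, among 13184 named genes above background on at least 1 array. All 8 were above background on every array.

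Each array carried RNA of 1 pool of 3 whole embryos of mixed background. The triple null pool was MafF-/-:MafG-/-:MafK-/- at E10.5. The MafG-intact (here also intact) pools were MafF-/-:MafG+/+:MafK-/-, taken at E10.5 and, younger, at E9.5. All 3 pools therefore lacked MafF and MafK, and no wild-type pool was analysed here. With 1 array per group no difference has a replicate error, none was tested, and "higher" and "lower" describe these 3 arrays. In RNA of whole embryos, fewer cells of a type and less RNA per cell cannot be told apart.

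Smooth muscle cells line vessels, gut and airways, and contract when Mylk, activated by calcium and calmodulin, phosphorylates myosin so that it pulls on actin. Many of their genes are switched on by serum response factor (SRF), which binds a DNA element called the CArG box and acts with the coactivator myocardin, the product of Myocd. In the midgestation mouse embryo several of these genes, among them Acta2, Tagln, Cnn1 and Myocd, are also active in heart muscle, and Des is active in heart and in the muscle of the somites. The 8 genes are therefore not exclusive to smooth muscle at these stages.

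A level below is the log2 intensity of a probe minus the 75th percentile of its array, averaged over the probes of a gene, so 0 is the brightness that 75% of spots lie under. Probes differ in how brightly they bind, so levels are compared between arrays and never between genes. A difference of 1 is 2-fold, and genes at least 2-fold apart were counted. Depth on an array is signal over background: the share of probes well above background was 69.2% for the triple null pool, 70.4% for the E10.5 and 69.1% for the E9.5 pool with MafG. The targeted gene Mafg was not well above background in the triple null pool, at least 173-fold lower than in the intact E10.5 pool. Xist passed background in the MafG-intact E10.5 pool alone, while Ddx3y, Eif2s3y, Kdm5d and Uty, all Y-linked, passed it in the other pools alone. Sex-linked signal thus separates the pools of the first comparison and those of the second, and its part in any difference was not tested.

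Promoter windows, 250 bases before to 50 bases after a start site, were found in the RefSeq table of build GRCm38.p6 for 5 of the 8 genes: Acta2, Cnn1, Csrp1, Des and Mylk. The exact CArG box (CC, then 6 bases that are A or T, then GG, the same on both strands) was in none of their 6 windows and in 1.63% of all 32851 windows. With exactly 1 G or C allowed among the 6 middle bases, 8.50% of all windows held a match, and of the 6 windows only that of Acta2, which held 2. That relaxed form was searched after the exact one gave no match. The Acta2 window, chr19:34255324-34255623 on the minus strand, is shown because it alone held such matches; capitals mark the 2 relaxed matches, whose first bases lie 84 and 34 bases before the start site.

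Acta2: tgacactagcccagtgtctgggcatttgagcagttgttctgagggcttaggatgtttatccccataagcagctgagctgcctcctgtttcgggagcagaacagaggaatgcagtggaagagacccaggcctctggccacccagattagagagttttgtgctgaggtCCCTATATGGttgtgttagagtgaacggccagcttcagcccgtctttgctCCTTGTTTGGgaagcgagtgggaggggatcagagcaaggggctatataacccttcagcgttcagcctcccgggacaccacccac

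The core of the element that small Maf proteins bind together with CNC partners, TGANNNNGC on either strand, was found in 3 of the 6 windows (Csrp1, Des and Mylk) and in 41.3% of all windows. The Mylk match read TGAGTCAGC, a sequence (searched on both strands after it was seen) in 0.414% of all windows, and one that contains the AP-1 motif TGAGTCA. The Mylk window, chr16:34784700-34784999 on the plus strand, is shown for that match, in capitals and 64 bases before the start site; such a match is a description and no measurement of binding.

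Mylk: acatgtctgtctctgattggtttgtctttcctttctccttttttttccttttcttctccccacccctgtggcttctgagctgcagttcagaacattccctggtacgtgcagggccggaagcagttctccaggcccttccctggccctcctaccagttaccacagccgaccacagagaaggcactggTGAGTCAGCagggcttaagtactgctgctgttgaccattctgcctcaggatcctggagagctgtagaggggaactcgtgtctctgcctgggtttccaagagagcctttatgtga

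The first comparison sets the triple null pool against the MafG-intact pool of the same age, both without MafF and MafK. These pools differ in MafG and in sex-linked signal, which cannot be told apart. All 8 smooth muscle genes were above 0, that is higher in the triple null pool, beside 58.4% of 12529 genes tested. Myocd and Actg2, 2 of the 8, were at least 2-fold higher, beside 0.982% of all genes, and none was at least 2-fold lower, beside 4.47%. In either direction, 5.45% of all genes were at least 2-fold apart. The differences ran from 0.15 to 1.26 with a median of 0.46, where the median of all genes was 0.06. At 1.5-fold, 3 of the 8 were higher, the third being Acta2, beside 4.12% of all genes.

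The transcription coactivator came first in size. Myocd lay at a level of -3.01 in the triple null pool, -4.27 in the MafG-intact E10.5 pool and -3.54 in the E9.5 pool. The triple null array was highest and the MafG-intact E10.5 array lowest. Myocd was 2.39-fold higher with the triple null than with MafG at the same age, and its difference ranked 75 from the highest of 12529. Its 2 probes, for different RefSeq transcripts, gave 1.21 and 1.31. One was dim, at -4.94 in the triple null pool and -6.24 in the MafG-intact E10.5 pool, where the lowest level well above background was -7.04. With normexp background correction, which draws dim spots together, the Myocd difference was 0.88 and only Actg2 of the 8 was at least 2-fold apart.

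The actins that build the contractile filaments followed. Actg2, gamma smooth muscle actin, lay at 1.97, 0.80 and 1.51 in the triple null, E10.5 intact and E9.5 intact pools. Again the triple null array was highest and the MafG-intact E10.5 array lowest, 2.25-fold apart. Its difference ranked 87 from the highest of 12529, but Actg2 rests on 1 probe and 1 spot per array. Acta2, alpha smooth muscle actin, lay at 2.37, 1.60 and 2.12 in the same order. The order of the arrays was that of Actg2, and triple null and intact E10.5 were 1.70-fold apart.

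The 3 probes of Acta2 agreed in direction and not in size. They were 1.34-fold, 1.79-fold and 2.06-fold higher in the triple null pool, set against intact E10.5. The last of these was printed 10 times, which shows the error of printing and scanning though not that of embryos. Its spots lay at 4.47 ± 0.067 (SD over 10 spots) in the triple null pool, 3.42 ± 0.058 (10 spots) in the MafG-intact E10.5 pool and 4.12 ± 0.058 (8 spots, 2 marked as outliers left out) in the E9.5 pool. The spots of the 3 arrays did not overlap, and spot by spot the triple null array was higher by 0.99 to 1.09. Actin transcripts are alike in their coding parts, so signal may be shared between the actin genes where a probe lies there; probe positions were not used here.

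**Figure D1:**
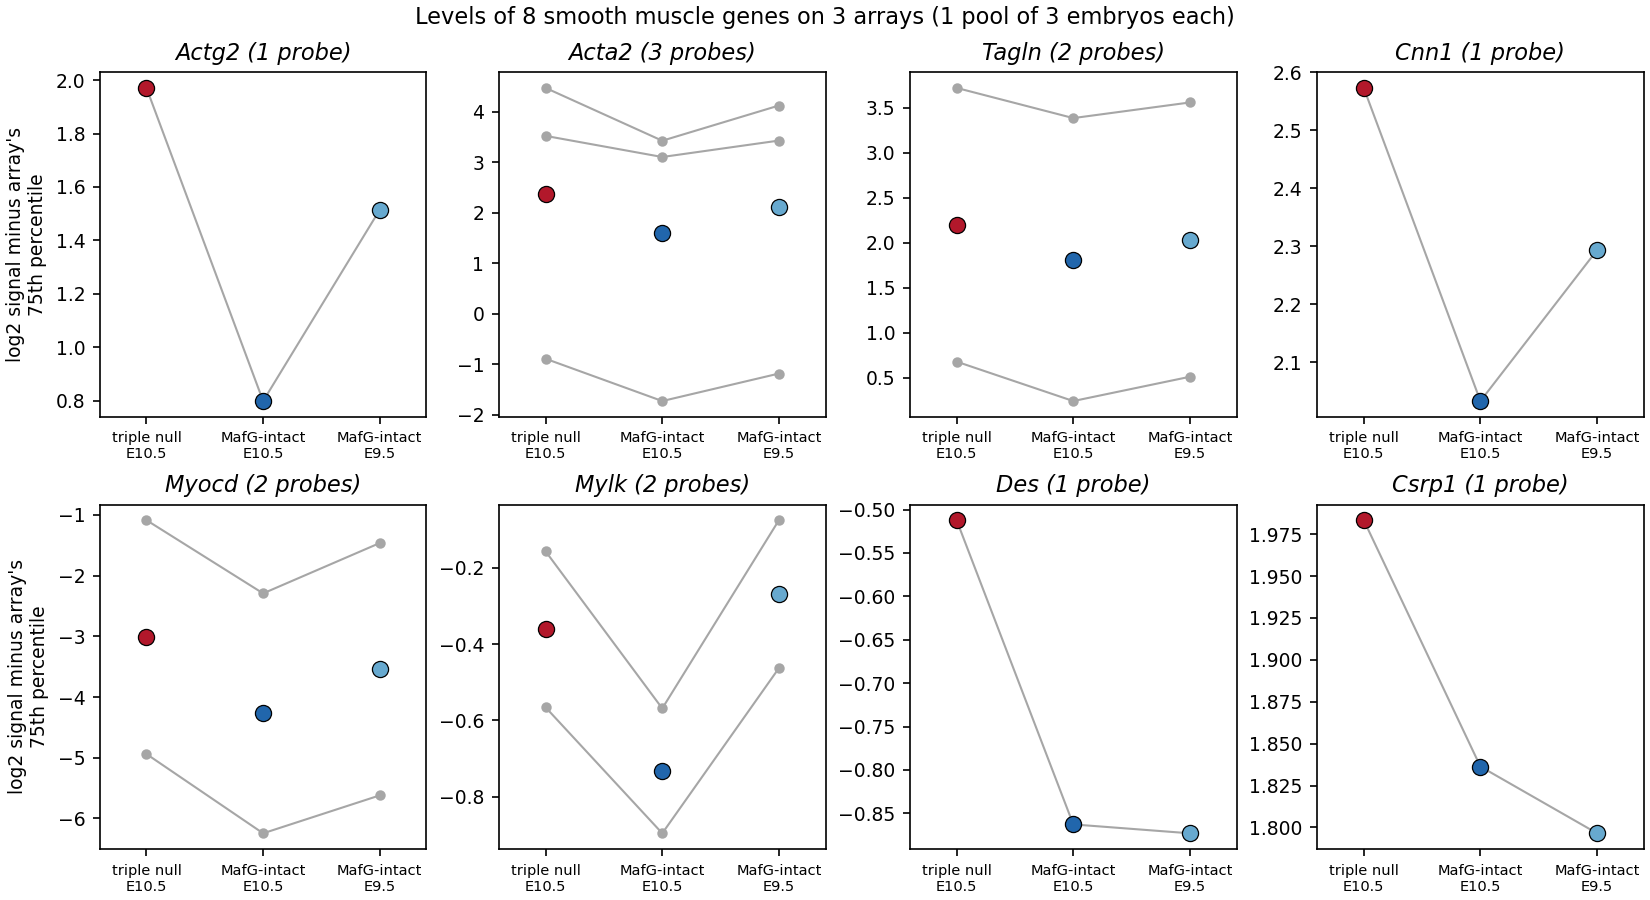
Level (log2 signal minus the array's 75th percentile, own vertical range in each panel) of the 8 genes on the 3 arrays; grey points and lines are probes and coloured points the gene's mean over its probes. Every gene is lowest on the MafG-intact E10.5 array except Des and Csrp1, which are lowest at E9.5, where Des lies at -0.87 against -0.86.

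Of the actin-binding genes, Cnn1 encodes calponin, which restrains the myosin motor. It lay at 2.57, 2.03 and 2.29 in the triple null, E10.5 intact and E9.5 intact pools, with 1 probe. Cnn1 was thus 1.45-fold higher in the triple null pool than at the same age with MafG. Tagln encodes transgelin, also called SM22 alpha, an actin-bundling protein and an early marker of the lineage. It lay at 2.20, 1.81 and 2.04 in the same order. Its 2 probes were 0.34 and 0.44 higher in the triple null pool, set against intact E10.5.

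Mylk was the 1 gene of the 8 that was highest on the E9.5 array. It lay at -0.36, -0.73 and -0.27 in the triple null, E10.5 intact and E9.5 intact pools, and its 2 probes gave 0.33 and 0.41 for the first comparison. The triple null and E9.5 pools were 1.07-fold apart. Mylk is made in many cell types besides smooth muscle.

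Des, the intermediate filament desmin that ties contractile units together in all 3 muscle types, lay at -0.51, -0.86 and -0.87 in the same order. The pools with MafG lay together and the triple null pool above them. Its probe was printed 10 times, with spot SDs of 0.078, 0.074 and 0.056. The scaled triple null spots, from -0.64 to -0.41, overlapped with neither MafG-intact array. Without scaling the Des difference from intact E10.5 was -0.05, so that gap rests on the scaling, and the difference from E9.5 was 0.38. Csrp1, a LIM-only protein that binds actin-crosslinking partners, lay at 1.98, 1.84 and 1.80. The 3 arrays were within 1.14-fold of each other, and 36.5% of all genes had a larger first-comparison difference than its 0.15.

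**Figure D2:**
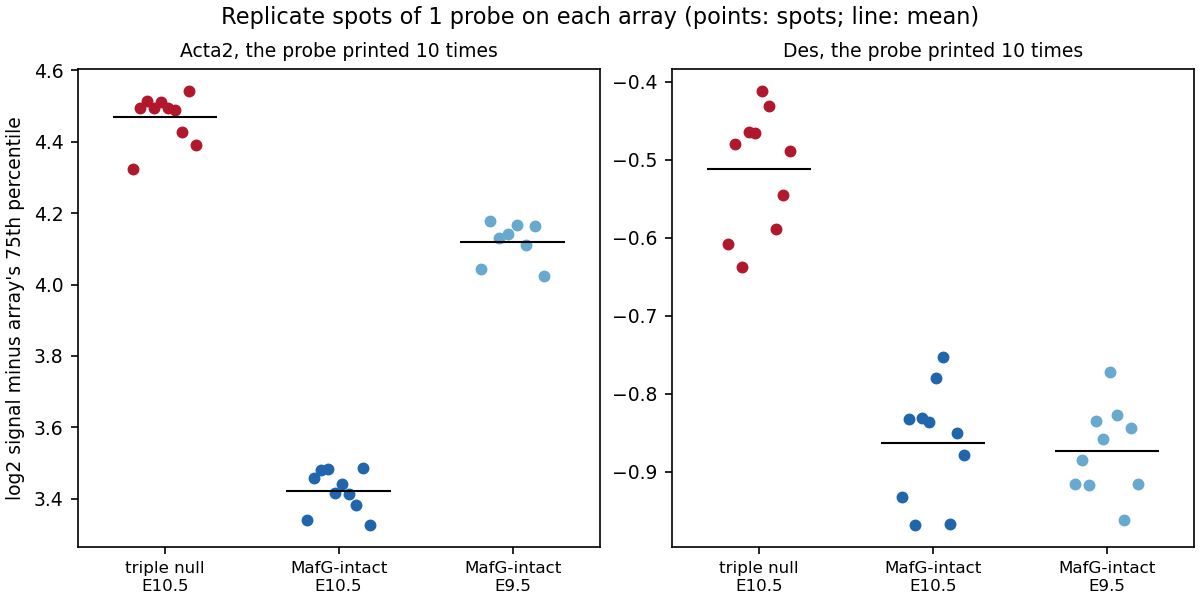
Levels (log2 signal minus the array's 75th percentile) of the spots of the Acta2 and Des probes that were printed 10 times, with a line at the mean; 2 Acta2 spots of the E9.5 array were marked as outliers and are left out. For Acta2 the 3 arrays do not overlap, and for Des the MafG-intact arrays overlap each other and lie below the triple null array. Without scaling, triple null minus intact E10.5 was 0.65 for this Acta2 probe and -0.05 for Des.

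Scaling set part of these sizes. The 75th percentile was 0.40 (log2) lower on the triple null array than on the intact E10.5 array. Without any scaling, an alternative added after the data were seen, the differences of Tagln, Mylk, Des and Csrp1 were -0.01, -0.03, -0.05 and -0.25, and those of Cnn1, Acta2, Actg2 and Myocd were 0.14, 0.37, 0.77 and 0.86. The median of all genes was then -0.34, so 0.34 is to be added to read each against it. All 8 were above the median of all genes with scaling. This could not change, because dropping the scaling shifts every gene and that median alike. Any positive difference under 0.40 between these arrays, also of the genes named below, turns negative without scaling. With the scaling used, 9 probes for Agilent's spike-in RNA differed by a median of 0.02 between these arrays, single ones by -0.07 to 0.38.

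The second comparison sets the older MafG-intact pool against the younger one. These pools differ in stage and in sex-linked signal, which cannot be told apart. Of the 8 genes, 6 were lower at E10.5, beside 57.2% of 12514 genes, and 2 were higher, beside 42.8%. No gene of the 8 reached 2-fold, beside 5.19% of the genes tested. The median difference was -0.36, where that of all genes was -0.05. Myocd (-0.73) and Actg2 (-0.72) were at least 1.5-fold lower at E10.5, beside 4.33% of all genes. The difference was -0.52 for Acta2, -0.46 for Mylk, -0.26 for Cnn1 and -0.22 for Tagln. Des (0.01) and Csrp1 (0.04) were level between the days; the sign of Des turned in 3 of 8 alternatives with scaling. Without scaling the median of the 8 turned to 0.05, with that of all genes at 0.37.

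The third comparison, triple null at E10.5 against MafG-intact at E9.5, leaves out the MafG-intact E10.5 array, and its pools did not differ in which of the named sex-linked genes passed background. Its pools differ in MafG and in age, which cannot be told apart. Of the 8 genes, 7 were higher in the triple null pool, beside 51.5% of 12521 genes. No gene of the 8 reached 2-fold, beside 0.783%. The largest differences were those of Myocd (0.53), Actg2 (0.46) and Des (0.36), and Mylk was the exception at -0.09. Cnn1 stood at 0.28, Acta2 at 0.24, Csrp1 at 0.19 and Tagln at 0.16. Of 12521 genes, 1.73% exceeded Myocd, 2.43% Actg2 and 4.02% Des. The percentiles of these arrays differed by 0.02, so scaling moved these values little.

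The comparisons share arrays, so their values are not independent of each other. The triple null array was the highest of the 3 for 7 of the 8 genes, in the orders given next, which 26.1% and 8.36% of all genes had. For 5 of them (Actg2, Acta2, Tagln, Cnn1 and Myocd) the order was triple null, E9.5, MafG-intact E10.5, an order that 26.1% of 12429 genes above background on all arrays shared. Des and Csrp1 had the order triple null, MafG-intact E10.5, E9.5, shared by 8.36%. That order rests on differences between the intact arrays of 0.01 (Des) and 0.04 (Csrp1), and the sign for Des held in 5 of 8 alternatives with scaling. Mylk had the order E9.5, triple null, MafG-intact E10.5, shared by 24.1%.

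**Figure D3:**
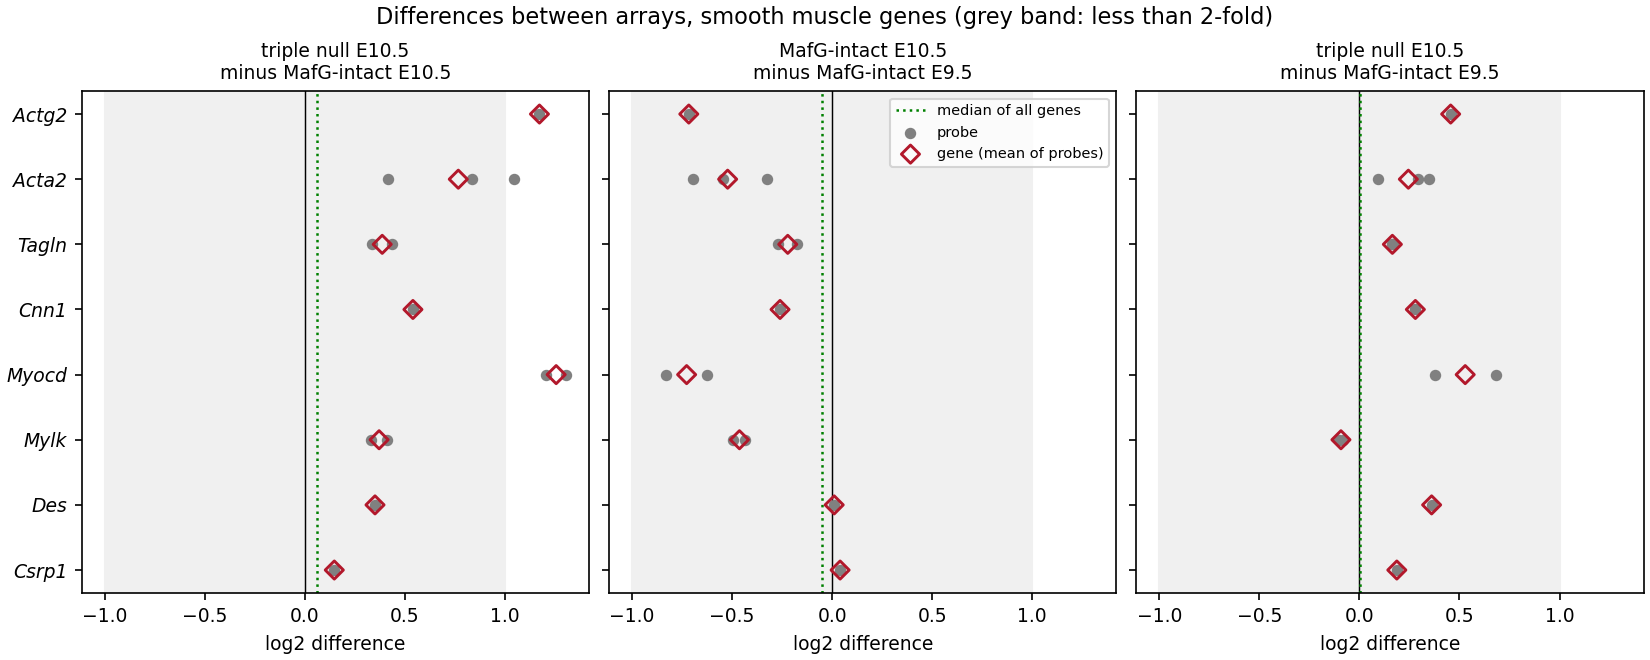
Log2 differences of the 8 genes in the 3 comparisons; grey points are probes, diamonds the gene's mean over its probes, the dotted line the median of all genes and the grey band differences under 2-fold. All 8 lie above 0 in the first comparison, with Myocd at 1.26 and Actg2 at 1.17 outside the band.

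Other genes of the contractile apparatus were mixed. Of 30 further smooth muscle contractile and cytoskeletal genes, 25 were above background on both arrays of the first comparison. Of these 25, 16 were above 0 and 9 below, beside 58.4% and 41.6% of all genes. The median was 0.11 beside 0.06 for all genes. There was 1 gene at least 2-fold higher and 1 at least 2-fold lower, beside 0.982% and 4.47% of all genes. The lower one was Myh11, smooth muscle myosin heavy chain, a selective marker of mature smooth muscle. Myh11 lay at -6.47, -5.24 and -6.11 in the triple null, E10.5 intact and E9.5 intact pools. Its highest array was the one where Actg2 was lowest, so Myh11 was 2.34-fold lower in the triple null pool. It was dim everywhere and, with normexp, the difference was -0.15. The higher one was Aoc3, a vascular amine oxidase (1.26, 1 dim probe, 0.55 with normexp).

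Among regulators, Srf itself was 0.25 higher in the triple null pool. Its ubiquitous coactivators Mrtfa and Mrtfb differed by -0.07 and 0.15; these 3 genes were named after their values were seen. Of 23 SRF cofactor and smooth muscle regulator genes, 13 were above 0, a count to be read against 58.4% for every gene tested. This list had a median of 0.16, and the full set of genes one of 0.06. The Notch target gene Heyl, expressed in vascular smooth muscle, was the 1 gene at least 2-fold apart, as were 5.45% of all genes. It lay at -1.60, -0.30 and -1.31 in the triple null, E10.5 intact and E9.5 intact pools, so at the same age it was 2.47-fold higher with MafG. Of 7 growth-induced SRF targets, 4 were above 0, beside the same 58.4%, with a median of 0.04. Egr2, a hindbrain and neural crest zinc finger gene, was 3.63-fold higher.

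Markers of pericytes and other vessel wall cells lay on the opposite side of the smooth muscle genes. Of 10 such genes 9 were below 0, beside 41.6% of all genes, with a median of -0.33. The exception was Des, which is in both lists. The potassium channel gene Kcnj8 was the 1 gene at least 2-fold lower (-2.55, or -0.92 with normexp), beside 4.47% of all genes. It lay at -6.56, -4.01 and -6.74 in the triple null, E10.5 intact and E9.5 intact pools. Endothelial genes had a median of 0.22, with 9 of 12 above 0 beside 58.4% of all genes. None was 2-fold apart, beside 5.45%, and the farthest were Robo4 (-0.93) and Egfl7 (0.33). Ligands and receptors that recruit vessel wall cells had a median of 0.04. Above 0 were 11 of 21 and none was 2-fold apart, beside the same shares. The farthest apart were the genes of the vasoconstrictor endothelin, Edn1 (0.95), and of a transforming growth factor, Tgfb3 (-0.82).

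Heart muscle markers were higher together with the smooth muscle genes. Of 21 cardiac genes 19 were above 0 in the first comparison, beside 58.4% of all genes. Their median was 0.66, beside 0.46 for the 8 smooth muscle genes. Their summed level, on the linear scale in units of each array's 75th percentile, was 227, 143 and 178 in the triple null, E10.5 intact and E9.5 intact pools. Such a sum leans on the brightest probes, here those of Myh7 and Myl7 (levels of 6.06 and 5.87 in the triple null pool), and is set only against itself on another array. That of the 8 smooth muscle genes was 25.2, 17.1 and 21.1. All 21 were above background on every array. The atrial myosin light chain gene Myl7 (1.03), the heavy chain gene Myh6 (1.02), Actc1 (1.01), the factor gene Nkx2-5 (1.01), Ankrd1 (1.01) and the small heat shock protein gene Hspb7 (1.39) were at least 2-fold higher; all but Hspb7 lay only just past 2-fold, and with quantile normalization none of those 5 reached it. Sln, sarcolipin, was lower (-2.10, or -1.01 with no filter on dim probes and -1.41 with normexp). Of all genes, 0.982% were at least 2-fold higher and 4.47% at least 2-fold lower. The part of heart muscle RNA in the smooth muscle differences was not tested.

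Skeletal muscle markers went the other way in the first comparison. Of 14 such genes 12 were below 0, beside 41.6% of all genes, with a median of -0.90. Among these 12, Chrnd (-0.01), Mef2c (-0.03), Myl1 (-0.04) and Tnnt3 (-0.08), named after their values were seen, were near level. At least 2-fold lower, beside 4.47%, were 6: Myog, Myf6, Mylpf, Tnnc2, Chrna1 and Mymk, from -1.97 for Tnnc2 to -1.03 for Myog. With normexp only Tnnc2 and Mylpf (-1.95 and -1.51) stayed past 2-fold, and Myf6 (-0.98), Myog (-0.92), Chrna1 (-0.61) and Mymk (-0.23) did not. The summed level was 10.6, 15.3 and 8.60 in the triple null, E10.5 intact and E9.5 intact pools. The defining factor gene Myod1 passed background at E10.5 with MafG and in neither other pool. The skeletal actin gene Acta1, which heart muscle also expresses at these stages, was an exception at 0.90. With Actc1 (1.01) and Actb (0.39) all 3 other actin genes measured were above 0, beside 58.4% of all genes.

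**Figure D4:**
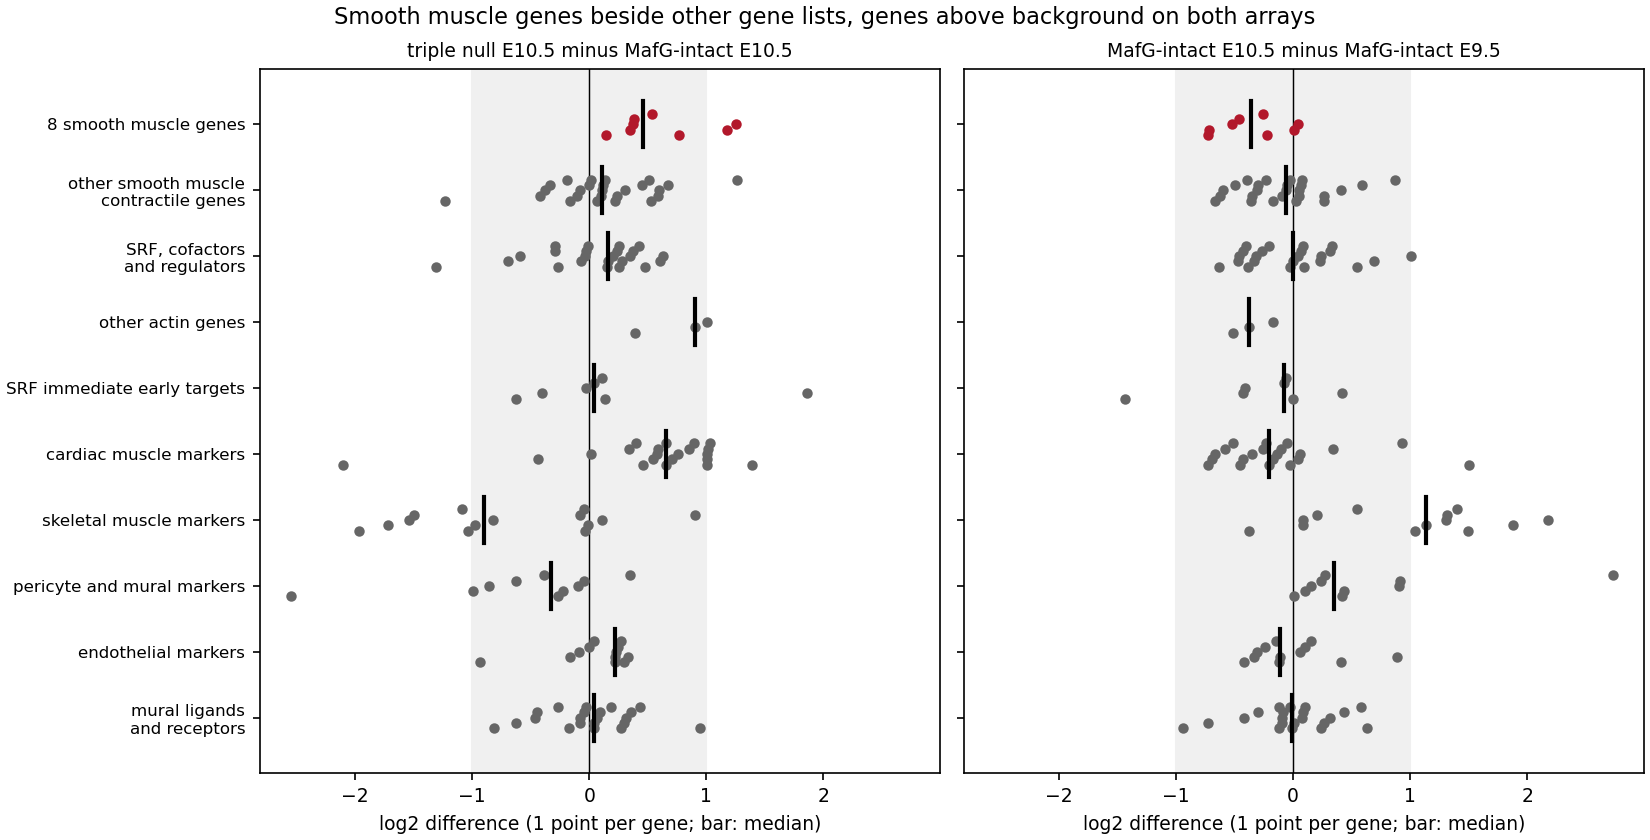
Log2 differences of the genes of each list in the first and the second comparison, 1 point per gene above background on both arrays, with a bar at the list's median; the grey band marks less than 2-fold and the 8 smooth muscle genes are in red. In the first comparison the medians are 0.90 for the other actin genes, 0.66 for cardiac, 0.46 for smooth muscle and 0.22 for endothelial genes. The skeletal (-0.90) and pericyte (-0.33) medians lie below 0.

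The second comparison shares the MafG-intact E10.5 array with the first, so its values are given side by side. The cardiac median was -0.21 and the smooth muscle median -0.36, while the skeletal median was 1.13 and the pericyte median 0.35. Of 13 skeletal genes 8 were at least 2-fold higher at E10.5, beside 4.12% of all genes. All 10 pericyte genes were above 0, beside 42.8% of all genes. The 8 skeletal genes were the 6 named above with Tnnt1 and Chrng, from 1.04 (Tnnt1) to 2.17 (Chrna1). Outside that list, Kcnj8 (2.73), Sln (1.499) and Heyl (1.01) were at least 2-fold higher at E10.5 than at E9.5, and Egr2 (-1.43) lower. The 2 probes gave 2.10 and 3.37 for Kcnj8, 1.46 and 2.89 for Chrna1, and 0.71 and 1.30 for Heyl. Kcnj8 lay at -6.74 on the E9.5 array, where the lowest level well above background was -6.89. In the third comparison the cardiac median was 0.43, with 19 of 21 genes above 0 beside 51.5% of all genes. The smooth muscle median was 0.26. The other contractile genes (0.01), the SRF list (0.01), the endothelial genes (-0.03) and the mural ligands and receptors (-0.0031) lay near the median of all genes (0.0050). The skeletal markers had a median of 0.23 with 10 of 13 above 0, and the other actin genes one of 0.49 with 3 of 3 above 0, so both lay on the side of the smooth muscle genes there, and the pericyte markers one of 0.06. Hspb7 was the 1 cardiac gene at least 2-fold apart there (1.45), beside 0.783% of all genes.

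The genes most like Actg2 were sought among 6214 others at or above the median level, by distance between levels on the 3 arrays after each gene was centred on its mean. The nearest was Arpc3, a subunit of the actin-branching Arp2/3 complex, at a distance of 0.010. Then came 4 heart genes: Myl7 (0.12), Ankrd1 (0.12), Nkx2-5 (0.12) and Actc1 (0.15). Without a filter on dim probes, 2 of the nearest 5 were from the cardiac list, and with the brightest probe per gene, 3. Nearest to the average of the 8 genes were Tma16, Rhoa, Cldn7, Cd3eap and Gal, at 0.010 to 0.042. Around that average the 8 genes themselves lay at 0.075 (Cnn1) to 0.45 (Myocd). With 3 arrays many genes can share a shape, and likeness here is a description of these arrays.

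**Figure D5:**
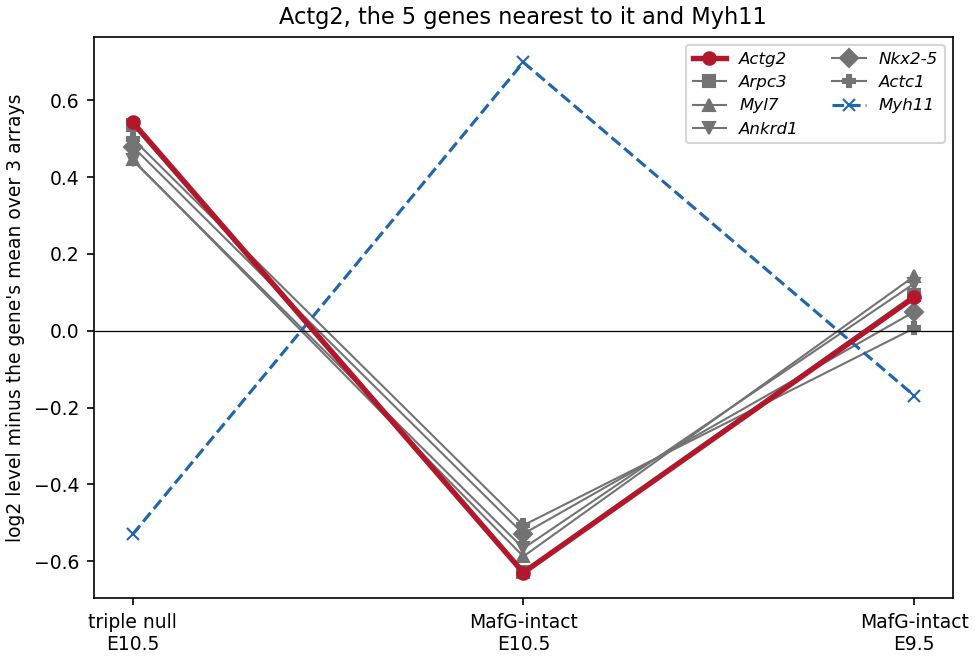
Level minus the gene's own mean over the 3 arrays (log2) for Actg2, the 5 genes nearest to it and Myh11. Actg2 and its 5 neighbours are highest in the triple null pool and lowest in the MafG-intact E10.5 pool, and Myh11 is highest in that pool.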

How the data were processed

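Cy3-labelled RNA of whole embryos was read on Agilent arrays of 1 colour, per the labels' protocols. All 3 arrays were on 1 slide and read on 1 day, per the file headers. The authors used Feature Extraction 9.5.3.1 (protocol GE1-v5_95_Feb07, design 014868, build mm7), as their headers say; per the file headers the deposited intensity is background-subtracted on a linear scale. The deposited value table holds the same intensity rounded (largest difference 0.497%).

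The 75th percentile over 43379 non-control spots (1078 for triple null, 1420 for the older and 1064 for the younger MafG-intact pool) was taken off each array's log2 intensity. Outlier spots (59, 52 and 83) were left out, with no spot at saturation. Each probe was the mean of its spots and each gene the mean of its probes, leaving out those at background on every array. Of 41174 probes, 22950 had 1 gene symbol by RefSeq accession, in a table of GRCm38.p6. Where a gene passed background in 1 pool of a comparison, "at least N-fold" sets it against the dim array's lowest signal well above background, or its own dim signal if higher.

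The 8 genes, the gene lists and the rule for named genes were chosen with earlier results of these data known. The rule took the 8 genes, Mafg, list genes at least 2-fold apart in a comparison (or the 2 farthest apart in the first) and the 5 nearest to Actg2 and to the average. The steps were tested on simulated data. Alternatives were normexp (limma, offset 50, on median spot intensity), quantile normalization, scaling on detected genes or spike-ins, other probe filters, the brightest probe, 1.5-fold and 3-fold, the deposited table and no scaling. Software was R 4.3.3 (limma 3.58.1) and Python 3.11.15 (numpy 2.4.6, pandas 2.3.3, matplotlib 3.10.9).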

Additional observations from a re-analysis of the deposited data

How the results depend on the processing

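No paired analysis was possible because each group held 1 array. Under 8 other settings with scaling, the sign of each of the 8 genes in the first and the third comparison stayed, as did that of the medians of the 8. Not all of these settings could move a gene. The filters on dim probes changed none of the 8 in the first comparison, and the brightest probe cannot change a gene with 1 probe. The deposited table is the same intensity rounded, and scaling on detected genes or spike-ins shifts each array as a whole. In the first comparison, 1 gene (Actg2) instead of 2 was at least 2-fold apart with normexp, 0 at 3-fold and 0 with no scaling; with the brightest probe per gene, 3 were, the third being Acta2, and 3 passed 1.5-fold. With no scaling, 4 of the 8 were above 0 and their median was 0.0657. Of the other settings, only 1.5-fold has a share of all genes: 4.12% higher in the first and 4.33% lower in the second comparison. No share of all genes was counted under the rest, so their counts stand without one. In the second comparison, 1 gene instead of 2 was above 0 with normexp, with scaling on detected genes and with spike-in scaling. There, 2 passed 1.5-fold, and with no scaling 4 were above 0 and the median of the 8 turned from -0.36 to 0.0550. No scaling also moved the median of all genes, from 0.06 to -0.34 in the first and from -0.05 to 0.37 in the second comparison. It shifts every gene of an array alike, so the medians of the 8 minus that of all genes could not change. With no filter on dim probes, 2 cardiac genes instead of 4 were among the 5 nearest to Actg2. Among the dim genes Myh11, Aoc3, Kcnj8, Chrna1 and Mymk, normexp brought each first-comparison difference nearer to 0, and the number of arrays limits every value.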
